A study of Mus musculus with 6 samples.

Results

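ISWI remodelers are chromatin machines in which an ATPase of the ISWI class slides nucleosomes along DNA and a large partner subunit decides where and how it does so. The mouse has an ATPase gene pair, *Smarca5* (SNF2H) and *Smarca1* (SNF2L). The large partners include BAZ1A (also called ACF1), which forms ACF with SMARCA5 and, with the small histone-fold proteins CHRAC1 and POLE3, forms CHRAC. They also include BAZ1B (WSTF, in WICH), BAZ2A (TIP5, in NoRC, known for silencing ribosomal RNA genes), BAZ2B, BPTF (in NURF) and RSF1 (in RSF). SMARCA5 is essential in the early mouse embryo. The genes described are these 10: *Baz1a*, *Baz1b*, *Baz2a*, *Baz2b*, *Smarca1*, *Smarca5*, *Bptf*, *Chrac1*, *Pole3* and *Rsf1*. They were found by symbol among the 55364 genes listed, and each symbol was present once. *Baz1a* was picked by its large fall in *Yy1* KD morulae, so its change is described here with no test, standard error or interval, and the other 9 genes were listed as its family and partners.

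Zygotes from in vitro fertilization of BDF1 oocytes with BDF1 sperm (BDF1 mice are C57BL/6N by DBA/2 hybrids) were injected with a control siRNA (control KD) or with an siRNA against *Yy1* (*Yy1* KD), a zinc finger transcription factor. Both groups were cultured in KSOM and collected 64 h after insemination as morulae, and each group had 3 libraries of 10 pooled morulae. A library is thus a pool of whole embryos, in which fewer cells and less RNA per cell cannot be told apart. An siRNA in the zygote acts on maternal and embryonic transcripts alike, and the knockdown leaves some transcript. Expression is given as TPM, read pairs on a gene per exon length, scaled to the same sum in each library. Any value is relative to the rest of the library. The length counts all annotated exons of a gene, whether used in morulae or not, so a comparison of levels between genes is approximate.

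The siRNA target was low as labelled, since *Yy1* itself had 9.07% of its control KD mean in *Yy1* KD morulae (log2 fold change -3.32). A log2 fold change is the mean of log2(TPM + 1) over the *Yy1* KD libraries minus that over the control KD libraries. Recovered from TPM and exon length, the libraries held between 11793509 and 24417789 read pairs on genes. Of 10 genes of the preimplantation embryo, among them *Pou5f1*, *Cdx2* and *Cdh1*, all 10 were at 1 TPM or more in every library. Their sum ranged from 1997 to 2295 TPM over the control KD libraries and from 1655 to 1974 TPM over the *Yy1* KD libraries, without overlap, and its part in the results was not tested. Of 7 markers of cumulus and granulosa cells, *Fshr*, *Has2*, *Ptx3* and *Tnfaip6* were at 0 in all libraries and the 7 summed to between 1.48 and 3.39 TPM in control KD and between 1.61 and 3.34 TPM in *Yy1* KD. The 4 sperm markers summed to at most 0.542 TPM in any control KD library and at most 2.26 TPM in any *Yy1* KD library.

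In control KD morulae, the transcripts of the ISWI genes covered a wide range of levels, with *Smarca5* the highest and *Smarca1* close to none. *Smarca5* was at 381, 373 and 363 TPM in the 3 libraries (372 ± 9.29 TPM, SD, n = 3) and held rank 361 of the 17353 genes tested. *Baz1a* followed at 313 ± 27.8 TPM and rank 446. *Baz2a* was at 235 ± 5.54 TPM, *Pole3* at 147 ± 14.5 TPM, *Bptf* at 93.3 ± 3.99 TPM and *Baz1b* at 77.2 ± 2.51 TPM. *Chrac1* (36.5 ± 2.73 TPM), *Rsf1* (27.0 ± 2.44 TPM) and *Baz2b* (10.5 ± 1.24 TPM) were lower (SD, n = 3 each). The order of the 10 genes was the same in all 3 control KD libraries, and no neighbours in this order overlapped, the closest being *Smarca5* (lowest library 363 TPM) and *Baz1a* (highest library 343 TPM).

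*Smarca1* was at 0.284, 0.697 and 0.0657 TPM in control KD and at 0.190, 0.0892 and 0.231 TPM in *Yy1* KD libraries. These values rest on 3 to 44 read pairs per library, against 14677 to 29952 for *Smarca5*, so *Smarca1* made up between 0.0181% and 0.186% of the summed TPM of both ATPase genes. *Smarca1* did not reach 1 TPM in any library and was the only member left out of the test, for which a gene needed 1 TPM in at least 3 of the 6 libraries. The groups overlapped, and a difference between them was not tested at this low depth. The longest identical stretch shared by the annotated transcripts of *Smarca1* and *Smarca5* was 21 nt. *Smarca5* shares up to 254 nt with its processed pseudogene *Smarca5-ps* (control KD mean 10.2 ± 1.62 TPM, *Yy1* KD mean 11.4 ± 1.43 TPM, SD, n = 3 each). The paper allowed multi-mapped reads in its counts of repeats and lists no such option for genes. A pair aligned equally to both would thus be counted for neither, and the number of such pairs is not known.

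**Figure D1:**
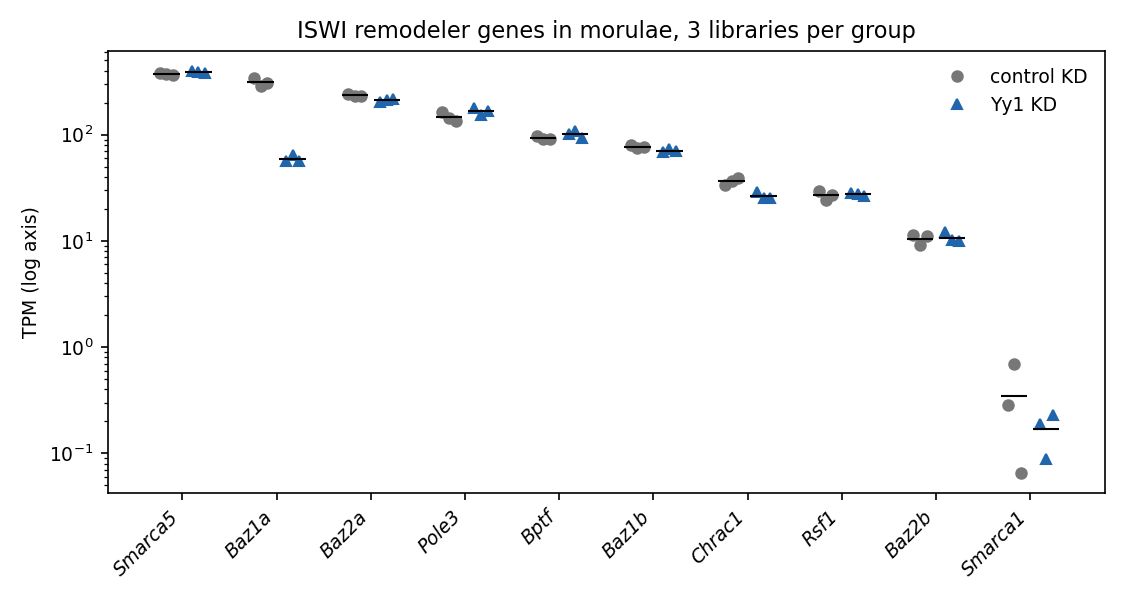
TPM (log axis) of the 10 ISWI genes, ordered by their control KD mean, with a point for each library (circles, control KD; triangles, *Yy1* KD) and a bar at the mean of 3 libraries. The mean of *Baz1a* is 313 TPM (control KD) or 58.8 TPM (*Yy1* KD), while *Smarca1* stays under 1 TPM in all 6 libraries.

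The ATPase pair also differed in promoter sequence, which is shown to set the abundant gene beside the one with almost no transcript. The RefSeq promoter (GRCm38.p6, 250 bases before to 50 bases after the start) of *Smarca5* lies at chr8:80739410-80739709 and that of *Smarca1* at chrX:47892564-47892863, both on the minus strand. CpG dinucleotides are in capitals, 32 in *Smarca5* and 9 in *Smarca1*, where the median of the 32851 promoters in the table was 7. The *Smarca1* promoter lies within the gene and leaves out its GENCODE start (47892974). A link between CpG number and transcript level was not tested.
Smarca5: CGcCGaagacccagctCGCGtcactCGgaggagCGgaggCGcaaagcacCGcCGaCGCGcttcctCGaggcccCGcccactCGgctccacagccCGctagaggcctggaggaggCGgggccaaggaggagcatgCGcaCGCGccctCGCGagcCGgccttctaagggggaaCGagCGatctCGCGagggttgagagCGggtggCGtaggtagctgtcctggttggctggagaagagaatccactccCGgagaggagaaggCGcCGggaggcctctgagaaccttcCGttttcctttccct
Smarca1: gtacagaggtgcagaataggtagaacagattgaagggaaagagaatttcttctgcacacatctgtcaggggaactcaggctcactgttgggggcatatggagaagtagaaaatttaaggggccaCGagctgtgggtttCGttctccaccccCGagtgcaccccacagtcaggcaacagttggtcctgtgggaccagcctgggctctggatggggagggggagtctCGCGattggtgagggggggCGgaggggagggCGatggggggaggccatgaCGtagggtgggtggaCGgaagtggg

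*Baz1a* (ENSMUSG00000035021.13) is encoded between 54892989 and 55014348 of chromosome 12, minus strand (GRCm38, which is mm10). The 3 control KD libraries held 343, 288 and 309 TPM of *Baz1a*, and the 3 *Yy1* KD libraries 56.1, 64.1 and 56.3 TPM. All 3 *Yy1* KD libraries were far below all 3 control KD libraries, with a mean of 58.8 ± 4.53 TPM (SD, n = 3) that was 18.8% of the control KD mean. The difference was -2.39 on the log2(TPM + 1) scale. It rested on 12714 to 21296 recovered read pairs per control KD library and on 1997 to 3111 per *Yy1* KD library. 

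In the list of all genes tested, 36 had a larger negative difference than *Baz1a*. Of the 446 genes with a control KD mean at or above that of *Baz1a*, none did, and 442 of them were within 1 of zero on the log2 scale. Both counts describe how *Baz1a* was picked and support nothing further. By its *Yy1* KD mean, *Baz1a* held rank 2495 of the genes tested. *Gm20403*, a short gene of the same strand, lies within *Baz1a* and shares 346 nt of its exons (4.83%), so that read pairs there were divided between both. *Gm20403* rests on 6 to 52 pairs per library, with means of 13.2 ± 0.714 TPM (control KD) and 4.45 ± 2.05 TPM (*Yy1* KD, SD, n = 3 each). *Baz1a* and *Baz1b* share no identical stretch over 14 nt.

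The shares of the large subunits are given as a description, since the level of *Baz1a*, by which it was picked, largely fixes them. Summed over *Baz1a*, *Baz1b*, *Baz2a*, *Baz2b*, *Bptf* and *Rsf1*, the large subunits reached 803, 721 and 746 TPM in the control KD libraries, against 470, 496 and 476 TPM with *Yy1* KD. *Baz1a* made up 41.4 ± 1.36% of this sum in control KD and 12.2 ± 0.599% after *Yy1* KD (SD, n = 3 each). *Baz2a* took its place as the leading share, with 31.1 ± 1.09% and 44.0 ± 1.75%. The 5 large subunits other than *Baz1a* summed to 460, 433 and 437 TPM without and to 414, 432 and 420 TPM with *Yy1* KD. Their ranges did not meet, the lowest control KD library being at 433 TPM and the highest *Yy1* KD library at 432 TPM. So narrow a gap can depend on the scaling of the libraries, which was not tested for this sum. The ratio of *Baz1a* TPM to *Smarca5* TPM was 0.841 ± 0.0642 in control KD and 0.151 ± 0.0118 with *Yy1* KD (SD, n = 3 each).

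**Figure D2:**
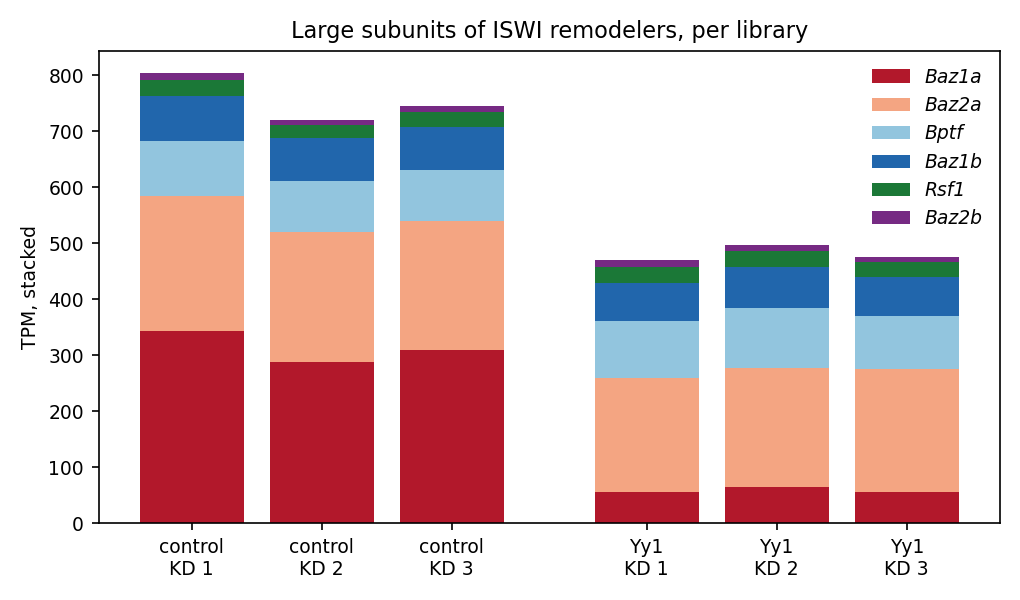
TPM of the 6 large subunits, stacked for each of the 3 control KD and 3 *Yy1* KD libraries. The *Baz1a* part shrinks from between 288 and 343 TPM to between 56.1 and 64.1 TPM, and the parts above it sum to between 414 and 460 TPM in all 6 libraries.

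Of the 9 members other than *Baz1a*, 8 were tested with limma on log2(TPM + 1) with Benjamini-Hochberg adjustment over all genes, and 0 of the 8 were called at an adjusted p under 0.05. Over all 17353 genes tested, 6.11% were called, 4.20% as lower and 1.92% as higher in *Yy1* KD, so that 0 of 8 is a count close to the background. At an unadjusted p under 0.05 there was 1 member, *Chrac1*, beside 23.8% of all genes tested. limma-voom on recovered read pairs, in which *Baz2a* had no value, also called *Chrac1* alone, beside 12.3% of all genes it tested. The median log2 fold change was 0.03 over the 8 members and -0.02 over all genes tested. In 3 of the 8, *Baz1b*, *Baz2a* and *Chrac1*, the groups did not overlap, all 3 lower in *Yy1* KD. Over all genes tested, 30.1% had groups that did not overlap in either direction, and 2984 of the 17353 were lower in this way.

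*Smarca5* (chromosome 8, 80698507 to 80739497), the catalytic partner of BAZ1A, was at 400, 392 and 381 TPM in *Yy1* KD against 381, 373 and 363 TPM in control KD libraries. The groups overlapped, and the log2 fold change was 0.07 (95% interval -0.08 to 0.22, limma adjusted p = 0.550). Its interval leaves room for a small difference in either direction and for none of the size seen in *Baz1a*. *Gm45872* shares 281 nt of the *Smarca5* exons (3.61%) on the same strand.

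Of the histone-fold partners of BAZ1A in CHRAC, *Chrac1* (chromosome 15, 73090392 to 73097554) was at 33.8, 36.4 and 39.3 TPM in control KD and at 28.7, 25.2 and 25.3 TPM in *Yy1* KD libraries. Every *Yy1* KD library was below every control KD library, and the mean was 72.3% of the control KD mean. The log2 fold change was -0.45 (standard error 0.10, 95% interval -0.69 to -0.21), and the adjusted p of 0.0504 from limma with Benjamini-Hochberg adjustment missed the threshold by a narrow margin. Of 15 alternative settings, 3 called *Chrac1*, and its adjusted p was between 0.0346 and 0.154. *Chrac1* shares 219 nt of its exons (9.31%) with *Ago2* on the opposite strand, where read pairs were divided without regard to strand. *Ago2*, which encodes an Argonaute protein of small RNA silencing, had a control KD mean of 216 ± 15.1 TPM and a *Yy1* KD mean of 189 ± 11.8 TPM (SD, n = 3 each), with a log2 fold change of -0.19 (limma adjusted p = 0.219), and the part of the shared pairs in the *Chrac1* values was not tested.

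*Pole3* (chromosome 4, 62522649 to 62525068), which serves in CHRAC and also in DNA polymerase epsilon, was at 162, 145 and 133 TPM in control KD and at 179, 152 and 166 TPM in *Yy1* KD libraries. These groups overlapped, with a log2 fold change of 0.18 (95% interval -0.06 to 0.41, limma adjusted p = 0.341). The ratio of *Chrac1* to *Pole3* was 0.209, 0.252 and 0.295 in control KD and 0.160, 0.166 and 0.152 in *Yy1* KD libraries. All 3 *Yy1* KD ratios were thus below the control KD ratios. Any full separation of 3 against 3 libraries gives p = 0.1 in a two-sided exact permutation test. No smaller p can be had, so the threshold cannot be reached and nothing is drawn from it.

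Among the BAZ proteins, *Baz2a* (chromosome 10, 128091577 to 128129303) was at 242, 232 and 232 TPM in control KD and at 203, 212 and 219 TPM in *Yy1* KD libraries. The groups did not overlap, and the log2 fold change was -0.15 (95% interval -0.31 to 0.00, limma adjusted p = 0.213). *Baz1b* (chromosome 5, 135187264 to 135246129) was at 80.1, 75.6 and 75.9 TPM in control KD and at 68.3, 73.8 and 69.8 TPM in *Yy1* KD libraries. It was again lower in every *Yy1* KD library by a small amount, with a log2 fold change of -0.13 (95% interval -0.30 to 0.04, limma adjusted p = 0.342). *Baz2b* (chromosome 2, 59899363 to 60209839) was at 11.4, 9.11 and 11.1 TPM in control KD and reached at least 9.97 TPM in each *Yy1* KD library, with groups that overlapped (log2 fold change 0.03, 95% interval -0.32 to 0.37, limma adjusted p = 0.935). Of the 4 BAZ genes, *Baz1a* thus made up 49.2 ± 1.57% of the summed TPM in control KD (SD, n = 3) and between 15.8% and 17.8% in the *Yy1* KD libraries. The ratio of *Baz1a* to *Baz1b* went from 4.05 ± 0.237 to 0.832 ± 0.0321 (SD, n = 3 each).

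The large subunits outside the BAZ family had overlapping groups. *Bptf* (chromosome 11, 107033081 to 107132127), the histone reader of NURF, was at 97.9, 91.0 and 91.0 TPM in control KD and at 102, 108 and 94.0 TPM in *Yy1* KD libraries (log2 fold change 0.11, 95% interval -0.08 to 0.30, limma adjusted p = 0.441). *Rsf1* (chromosome 7, 97579889 to 97692778), which builds the RSF complex with SMARCA5, was between 24.5 and 29.3 TPM in control KD and between 26.8 and 28.4 TPM in *Yy1* KD (log2 fold change 0.04, 95% interval -0.20 to 0.27, limma adjusted p = 0.866). In *Yy1* KD morulae the order of the members was *Smarca5*, *Baz2a*, *Pole3*, *Bptf*, *Baz1b* and *Baz1a*, followed by *Rsf1* and *Chrac1*, whose libraries overlapped, and by *Baz2b* and *Smarca1*. *Baz1a* was sixth in all 3 *Yy1* KD libraries. *Baz1b*, *Baz2b* and *Rsf1* share at most 1.35% of their exons with another annotated gene.

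**Figure D3:**
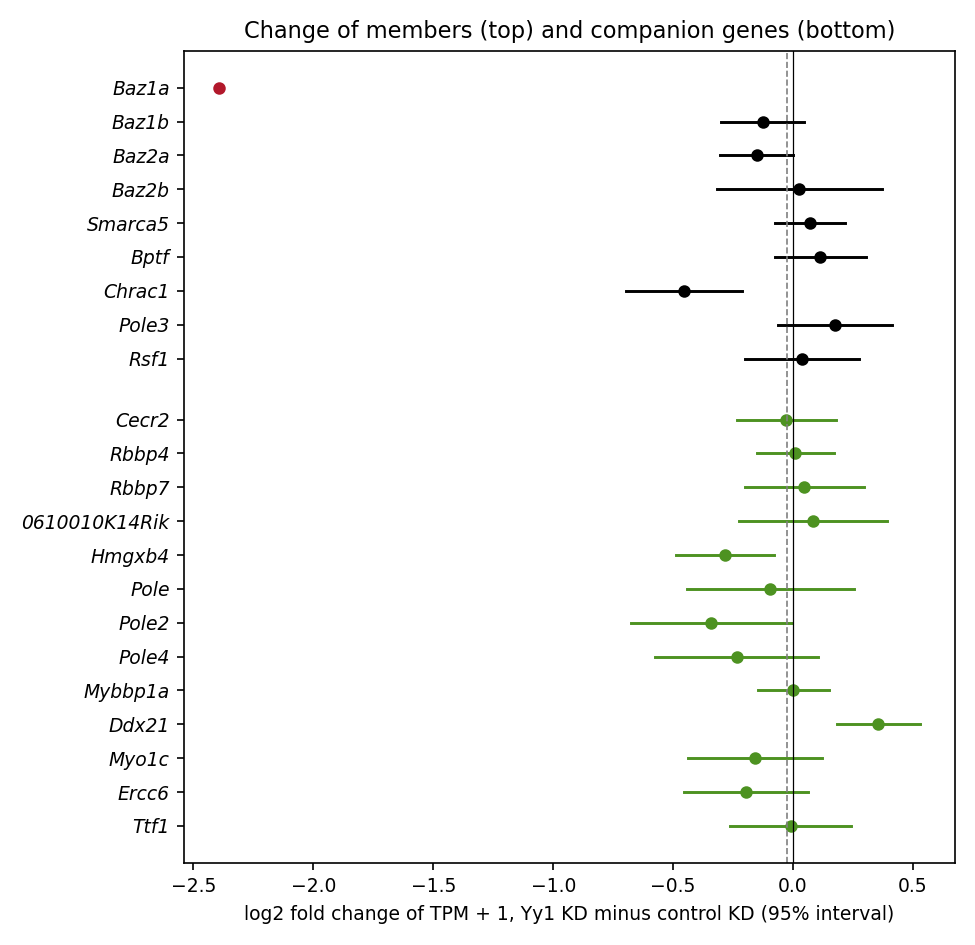
Log2 fold change of TPM + 1 (*Yy1* KD minus control KD, x axis) for the 9 members above the filter (*Baz1a* in red, others in black) and for 13 companion genes (green), with the 95% interval from limma for all but *Baz1a* and a dashed line at the median of all genes tested. *Baz1a* lies at -2.39, the other members between -0.45 and 0.18, and the companion genes between -0.34 and 0.36.

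The 13 companion genes, listed by their known part in these complexes, were all tested, and 1 was called, as higher (6.11% of all genes tested were called). Their median log2 fold change was -0.03, and in 4 of the 13 the groups did not overlap (30.1% of all genes tested). The called gene was *Ddx21*, an RNA helicase of the nucleolus found in B-WICH, the larger assembly around BAZ1B and SMARCA5. It was at 478, 448 and 472 TPM in control KD and at 623, 611 and 556 TPM in *Yy1* KD libraries, higher in all 3 (log2 fold change 0.36, standard error 0.07, limma adjusted p = 0.0410). Of the 15 alternatives, 5 called it, and none of the 6 that left out a library did (log2 fold changes between 0.32 and 0.40). *Mybbp1a*, a nucleolar protein of the same assembly, had means of 317 ± 9.83 TPM (control KD) and 317 ± 6.43 TPM (*Yy1* KD, SD, n = 3 each), and its log2 fold change was 0.00 (95% interval -0.15 to 0.15).

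Among the NURF and CERF partners, *Cecr2*, the large subunit of CERF, was at 82.9 ± 4.91 TPM and 81.3 ± 5.87 TPM, and the histone-binding proteins *Rbbp4* (88.3 ± 2.63 and 88.9 ± 1.91 TPM) and *Rbbp7* (log2 fold change 0.05) had overlapping groups as well (control KD and *Yy1* KD, SD, n = 3 each). *Hmgxb4*, an HMG-box protein associated with NURF, was at 77.4, 75.5 and 70.7 TPM in control KD and at 65.3, 61.5 and 56.4 TPM in *Yy1* KD libraries. It was lower in every *Yy1* KD library without passing the threshold (limma, log2 fold change -0.28, adjusted p = 0.105). The log2 fold change of *0610010K14Rik* (BAP18) was 0.08 (95% interval -0.23 to 0.39).

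The remaining subunits of DNA polymerase epsilon, which shares *Pole3* with CHRAC, were not called either. *Pole2* was at 18.2, 14.7 and 15.3 TPM in control KD and at 13.9, 11.0 and 12.5 TPM in *Yy1* KD libraries, without overlap (log2 fold change -0.34, limma adjusted p = 0.203). *Pole4*, the histone-fold partner of POLE3 in the polymerase, had a log2 fold change of -0.23 (limma adjusted p = 0.377), and the catalytic subunit *Pole* one of -0.10 (limma adjusted p = 0.743), both with overlapping groups. Of the genes linked to WICH and NoRC, *Ercc6* (log2 fold change -0.20, limma adjusted p = 0.330) was lower in every *Yy1* KD library, and *Myo1c* (-0.16, 0.464) and *Ttf1* (-0.01, 0.970), which recruits NoRC to ribosomal DNA, had overlapping groups.

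The YY1 consensus GCCATNTT, which reads AANATGGC on the other strand, was searched on both strands of the RefSeq promoters. Of the 10 members 7 had a promoter in the table, and *Baz1a*, *Chrac1* and *Rsf1* did not. The motif was present in 2 of the 7, *Baz1b* and *Bptf*, and in 6.05% of all 32851 promoters. The promoters searched for *Baz2b* (chr2:60125691-60125990, minus strand), *Baz2a* (chr10:128092533-128092832, plus strand), *Smarca1* and *Pole4* lie within the genes. The regions at their GENCODE starts (60209839, 128091577, 47892974 and 82705365) were not searched. Of the companion genes 11 had a promoter, and 2 had the motif in at least 1 of theirs, *Pole2* and *Hmgxb4*. In *Hmgxb4* the match lay only in the promoter at chr8:75015972-75016271, and the one near the gene start (chr8:74993400-74993699) had none. These are counts of genes, while the 6.05% is a share of promoters. The promoters of *Baz1b* (chr5:135187073-135187372, plus strand), *Bptf* (chr11:107132098-107132397, minus strand) and *Pole2* (chr12:69228141-69228440, minus strand) are shown since they hold the letters near the start, with the match in capitals. Its first base lies at -13 in *Baz1b*, at 26 in *Bptf* and at 24 in *Pole2*, counted from 1 at the first transcribed base and from -1 at the base before it.
Baz1b: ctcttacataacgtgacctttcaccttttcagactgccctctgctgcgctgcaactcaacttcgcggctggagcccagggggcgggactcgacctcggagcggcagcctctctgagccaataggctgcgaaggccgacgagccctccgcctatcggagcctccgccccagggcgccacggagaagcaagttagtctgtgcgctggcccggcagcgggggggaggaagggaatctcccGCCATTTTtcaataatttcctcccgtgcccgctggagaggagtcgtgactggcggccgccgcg
Bptf: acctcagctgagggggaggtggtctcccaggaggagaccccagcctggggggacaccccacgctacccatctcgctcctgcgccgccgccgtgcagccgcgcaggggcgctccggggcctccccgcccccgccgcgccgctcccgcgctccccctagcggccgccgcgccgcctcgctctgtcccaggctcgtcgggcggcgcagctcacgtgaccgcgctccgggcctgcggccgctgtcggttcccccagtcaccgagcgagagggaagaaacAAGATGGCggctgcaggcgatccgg
Pole2: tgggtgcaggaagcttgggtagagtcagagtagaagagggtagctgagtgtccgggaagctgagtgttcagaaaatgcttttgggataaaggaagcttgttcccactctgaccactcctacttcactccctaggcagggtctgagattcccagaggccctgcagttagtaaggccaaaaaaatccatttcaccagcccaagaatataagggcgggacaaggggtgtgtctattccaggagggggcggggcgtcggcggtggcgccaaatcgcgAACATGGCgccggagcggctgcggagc
The motif was thus present at a gene whose libraries were lower without overlap (*Baz1b*, log2 fold change -0.13) and at a gene whose groups overlapped (*Bptf*, 0.11), and neither was called. *Pole2* (-0.34) and *Hmgxb4* (-0.28) were lower without overlap and were not called either. *Baz2a* and *Ercc6*, without the motif in the promoter searched, were lower without overlap as well. For *Baz2a* that promoter leaves out the GENCODE start. *Ddx21*, also without it, was higher, and the other genes searched without it had overlapping groups. Of all 17353 genes tested, 2984 were lower without overlap. A link between motif and change was not tested. A match of letters is no evidence of binding.

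Genes next to the members were compared in the same test. *Cfl2*, which encodes an actin-severing cofilin and is the nearest protein-coding gene on the low-coordinate side of *Baz1a* (chromosome 12, 54858809 to 54862877), was at 39.3, 37.8 and 41.0 TPM in control KD and at 28.8, 29.3 and 29.1 TPM in *Yy1* KD libraries. It was lower in every *Yy1* KD library and was called (log2 fold change -0.42, standard error 0.08, limma adjusted p = 0.0339), a call made by 5 of 15 alternatives and by none that left out a library (log2 fold changes between -0.45 and -0.39). On the other side, *2700097O09Rik* (55045661 to 55080110) had means of 6.76 ± 1.51 TPM (control KD) and 7.35 ± 0.355 TPM (*Yy1* KD, SD, n = 3 each), with overlapping groups (log2 fold change 0.12, limma adjusted p = 0.729).

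In GENCODE, 3 members had a gene on the other strand that starts within 1 kb of their own start, and such a pair can share a promoter region. *4933430I17Rik* starts 301 bases from *Pole3* and shares no exon with it. It was at 7.91, 9.29 and 9.77 TPM in control KD and at 20.9, 26.7 and 20.6 TPM in *Yy1* KD libraries. Every *Yy1* KD library was above every control KD library, the *Yy1* KD mean was 253% of the control KD mean, and the gene was called (log2 fold change 1.24, standard error 0.15, limma adjusted p = 0.0125), while *Pole3* was not. The difference between the changes of this pair was not tested. Of 15 alternatives, 13 called it. Without control KD replicate 1 the adjusted p was 0.0504 and without control KD replicate 3 it was 0.0511, with log2 fold changes of 1.16 and 1.30. *Aamdc*, 392 bases from *Rsf1*, had overlapping groups (log2 fold change 0.19, limma adjusted p = 0.471). *March7* (*Marchf7* in the deposited table), which encodes an E3 ubiquitin ligase and starts 48 bases from *Baz2b*, went from 37.9 ± 2.06 to 31.1 ± 1.93 TPM (SD, n = 3 each), without overlap, and did not pass the threshold (limma, log2 fold change -0.28, adjusted p = 0.130).

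**Figure D4:**
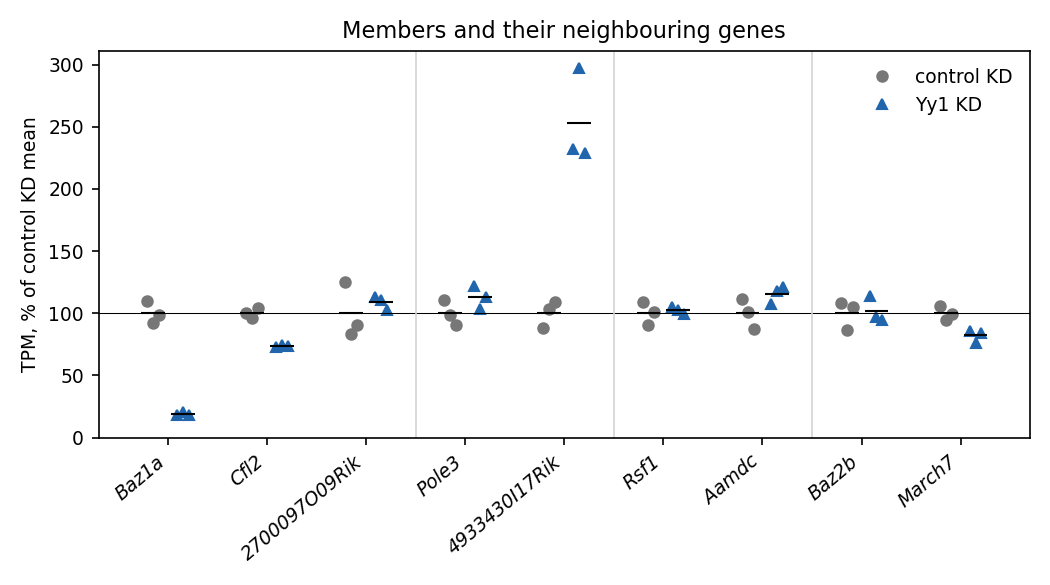
TPM of members and their neighbouring genes in each library, as a percentage of the control KD mean of the same gene (circles, control KD; triangles, *Yy1* KD; bars, mean of 3 libraries). *Baz1a* lies at 18.8% in *Yy1* KD between neighbours at 73.8% (*Cfl2*) and 109% (*2700097O09Rik*), and *4933430I17Rik* at 253% beside *Pole3* at 113%.

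The genes whose pattern over the 6 libraries was most like that of *Baz1a* were sought among 6647 tested genes with a control KD mean of at least 10 TPM. Genes with a clone or predicted name (such as Gm or Rik) or an mt- symbol were left out before the ranking. Likeness was the Euclidean distance between log2(TPM + 1) values after each gene was centred on its own mean, and with 2 groups it mostly compares the size of the difference. The nearest were *Rpusd4* (distance 0.246), *Thrap3* (0.439), *Strn4* (0.440), *Prepl* (0.457) and *Spryd4* (0.562). *Thrap3*, which encodes a protein of RNA splicing and transcription, was at 75.3, 90.8 and 88.4 TPM in control KD and at 15.2, 14.4 and 15.4 TPM in *Yy1* KD libraries. *Rpusd4*, which encodes a pseudouridine synthase of mitochondrial RNA, went from 13.1 ± 2.33 to 1.95 ± 0.226 TPM, *Strn4* from 16.8 ± 1.54 to 2.59 ± 0.416 TPM, *Prepl* from 12.1 ± 0.283 to 1.34 ± 0.388 TPM and *Spryd4* from 14.2 ± 3.44 to 1.91 ± 0.346 TPM (SD, n = 3 each). All 5 had *Yy1* KD means between 11.1% and 17.7% of the control KD mean, and in control KD all 5 were below *Baz1a*, the closest being *Thrap3* at 84.8 ± 8.33 TPM. With 0.1 in place of 1 added to TPM, the log2 fold change was -2.41 for *Baz1a* and -2.49 for *Thrap3*. It was then between -3.11 and -2.66 for the others. The ranking was not repeated on that scale. In *Yy1* KD libraries *Spryd4* rested on 12 to 27 read pairs and *Rpusd4* on 23 to 39.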

How the data were processed

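The authors trimmed the reads with Trim Galore (version 0.6.7 per the labels), aligned them to mm10 with HISAT2 (2.2.1), removed ribosomal RNA reads with bedtools, assigned read pairs to GENCODE vM25 genes with featureCounts (2.0.1, without strand, splitting a pair that fell on several genes) and deposited the values as TPM. TPM is no count, so limma (3.58.1, R 4.3.3) was fitted here to log2(TPM + 1) over all 17353 genes with at least 1 TPM in at least 3 of 6 libraries, with a variance trend, no covariates and Benjamini-Hochberg adjustment at 0.05. The fold change on this scale understates changes of low genes. Standard errors and 95% intervals are those of limma.

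The members and lists were chosen with earlier results of these data known. Named genes were *Yy1*, the members, the companion genes, the 5 genes nearest to *Baz1a* in pattern, and neighbours, overlapping genes and pseudogenes of members. Nothing in the labels ties libraries to separate collections, so p-values measure the spread between pools. Positions, exon lengths and overlaps came from GENCODE vM21 (GRCm38), which matched 54312 of 55364 identifiers with their version, and multiplying TPM by exon length gave back the read pairs (between 99.3% and 99.4% of values under 20 pairs were multiples of 1/6 of a pair within 0.01 pairs). *Baz2a* had another version in this release and no recovered pairs. Promoters came from RefSeq (GRCm38.p6). Protein sequences were not used here. Python 3.11.15 with pandas 2.3.3, numpy 2.4.6 and matplotlib 3.10.9 made tables and figures. The alternatives were quantile normalization, median-ratio scaling, weights per library, a fit with the replicate block, a fit without the variance trend, a pseudocount of 0.1, no filter, a filter at a mean TPM of 5, and each library left out. limma-voom on recovered pairs was added after the data were seen.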

Additional observations from a re-analysis of the deposited data

How the results depend on the processing

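*Baz1a* was between -2.45 and -2.33 on the log2 scale in all 15 alternatives, and *Baz1b*, *Baz2a*, *Smarca5*, *Bptf*, *Chrac1* and *Pole3* kept their direction in all that gave them a value. *Chrac1* alone changed its call among the members. It was called with a mean TPM of at least 5, with weights per library and with limma-voom (1 member each, adjusted p 0.0346, 0.0472 and 0.0449), where fewer genes, other weights and another variance model entered the test. *Ddx21* was the companion gene called, and 0 companion genes were called without the filter, with quantile normalization, without the variance trend, with the replicate block and in every fit without a library. The cause was not tested.

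Over all genes, 728 lower and 333 higher genes became 270 and 77 without the filter, 382 and 132 without the variance trend, 1285 and 801 with limma-voom, and between 53 and 326 lower and between 22 and 92 higher genes without a library (fewest without control KD replicate 3). With the replicate block they were 218 and 69. For libraries with the same number, the deviations from the group means correlated at -0.0039, 0.032 and 0.075. Control KD replicate 1 correlated best with *Yy1* KD replicate 2, while control KD replicates 2 and 3 correlated best with their own number. With 3 libraries in each group, these values cannot decide whether equal numbers mark pairs. The block also ended the calls of *Cfl2* and *Ddx21* (limma adjusted p = 0.0991 and 0.0932) and no call of a member. *Gm20403* and *Ago2* were not followed through the alternatives.

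Changes of direction were seen in genes near 0 that were never called. *Ttf1* was 0.016 with median-ratio scaling, 0.060 with quantile normalization and 0.018 with limma-voom, *Cecr2* 0.021 and *Rbbp7* -0.019 with quantile normalization. Without a library, *Baz2b* was between -0.065 and 0.083, *Rsf1* between -0.030 and 0.096, *Cecr2* between -0.063 and 0.032, *Rbbp4* between -0.015 and 0.027, *Rbbp7* between -0.024 and 0.14, *0610010K14Rik* between -0.013 and 0.17, *Mybbp1a* between -0.020 and 0.025, *Pole* between -0.21 and 0.023, and *Ttf1* between -0.094 and 0.064. Depth limits *Smarca1*, which had at most 44 read pairs in a library, and its part in the values of the other members was not tested.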
